A study of Mus musculus with 6 samples.

Results

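The genes described here encode the Homer and Shank scaffolds of excitatory synapses and their group I metabotropic glutamate (mGlu) receptor partner: Homer1, Homer2, Homer3, Shank1, Shank2, Shank3 and Grm5. Of the 7 genes, 6 were measured, among 18193 genes with a probe set annotated to them alone, and by 14 of 45037 probe sets; Shank2 had no such probe set. A probe set is a group of short array probes summarised to 1 level. The group was chosen by function around Homer1, which had already been seen to be lower in the knockout in these arrays, so every knockout against wild type value of the 7 genes is a description and is not offered as a test.

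Cortex was taken at postnatal day 29 from wild type mice (WT) and from littermates with a knockout of HtrA2 (HtrA2_KO), with 3 arrays per genotype and total RNA throughout. HtrA2 is a protease that works between the membranes of mitochondria, and mice without it are known for a movement disorder and early death. The labels name no treatment, strain, sex or allele structure, and do not say whether each array came from 1 animal. Levels are on the log2 scale of RMA, the method by which the arrays were summarised, and a difference is HtrA2_KO minus WT with its standard error (n = 3 per group throughout).

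Homer proteins carry an EVH1 domain that grips proline-rich stretches of group I mGlu receptors, Shank proteins and the calcium release channels of internal stores. The long forms also have a coiled coil and join into multimers, which tie the receptors to the Shank layer of the postsynaptic density. Homer1 in addition gives a short form without the coiled coil, Homer1a, which neurons make on strong synaptic activity and which competes with the long forms for the same partners.

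The 2 probe sets of the knocked-out gene went opposite ways. One read 8.89, 8.86 and 9.02 in WT and 6.42, 7.08 and 6.45 in HtrA2_KO, a difference of -2.27 ± 0.17 (adjusted p = 0.00227). The other read 8.23, 8.12 and 8.28 against 9.35, 9.35 and 9.27, or 1.11 ± 0.08 (adjusted p = 0.00169). No source used here places their probes against the knockout allele, so neither is a full check of the labels. Whether either probe set reports Htra2 RNA alone was not tested. Array medians lay between 6.40 and 6.45. Knockout replicate 2 stood farthest from its group, with a mean absolute deviation of 0.136 against 0.0941 and 0.0956 in the other two. Across all probe sets, limma called 398 lower and 398 higher at a Benjamini-Hochberg adjusted p under 0.05, the threshold meant by "called" below. Without WT replicates 1, 2 and 3 the total of 796 became 70, 65 and 107, and without knockout replicates 1, 2 and 3 it became 377, 3037 and 103.

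Homer1 was lower in the knockout at all 6 of its probe sets, and in none did the groups overlap. The differences ranged from -2.27 to -0.22 between them. Of the 6, 3 were called lower, where 0.884% of all probe sets were; since Homer1 led to the choice of the group, nothing is read from that. No source used here says which of the 6 report the activity-induced short form and which the long forms, so each is described by its own identifier. In Affymetrix naming, the ending _a_at marks a probe set that matches several transcripts of 1 gene.

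The steepest was 1436387_at. It read 10.73, 10.28 and 10.23 in WT and 8.38, 7.82 and 8.22 in HtrA2_KO. The lowest WT array lay 1.86 above the highest knockout array, and WT replicate 1 was the highest of the 6. Group means were 10.41 ± 0.27 (SD) and 8.14 ± 0.28 (SD), a difference of -2.27 ± 0.17 or 4.83-fold lower. It was called with each of the 6 arrays left out in turn, at differences from -2.39 to -2.11.

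Next came 1425671_at, with 6.15, 5.63 and 5.16 in WT and 4.17, 4.48 and 4.13 in HtrA2_KO. The WT arrays were spread over almost a whole log2 unit, but the lowest of them still lay 0.69 above the highest knockout array. The difference was -1.39 ± 0.23, or 2.63-fold lower. This was the only one of the 14 probe sets whose mean lay below the median of all values (6.42), a range in which RMA compresses differences. Its call was lost without WT replicate 1 or 2 or without knockout replicate 1 or 3, where the difference was -1.14, -1.40, -1.35 and -1.33.

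The remaining probe sets showed shallower differences on tighter replicates. At 1425710_a_at the levels were 8.86, 8.78 and 8.77 in WT and 8.38, 8.42 and 8.41 in HtrA2_KO, which gave -0.41 ± 0.07 and the third call. The knockout arrays agreed to within a few hundredths of a unit there, and the gap between the groups was 0.35. That call was kept only without knockout replicate 2, at -0.41; without the other arrays the difference lay between -0.42 and -0.38 and did not pass.

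At 1439662_at the levels were 10.73, 10.67 and 10.65 against 10.35, 10.34 and 10.33, a difference of -0.34 ± 0.07 that was not called. At 1421768_a_at they were 8.98, 8.78 and 8.48 against 8.13, 8.33 and 8.24, or -0.51 ± 0.13, also not called. The second had a larger difference than the first and a wider WT spread, 0.25 (SD) against 0.041.

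The flattest was 1437363_at, the Homer1 probe set with the highest mean. It read 11.90, 11.85 and 11.84 in WT and 11.55, 11.78 and 11.60 in HtrA2_KO, a difference of -0.22 ± 0.08 (1.17-fold lower) that was not called. Knockout replicate 2 came within 0.060 of the lowest WT array. In the same knockout RNA, then, 1 Homer1 probe set stood 4.83-fold and another 1.17-fold under wild type.

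**Figure D1:**
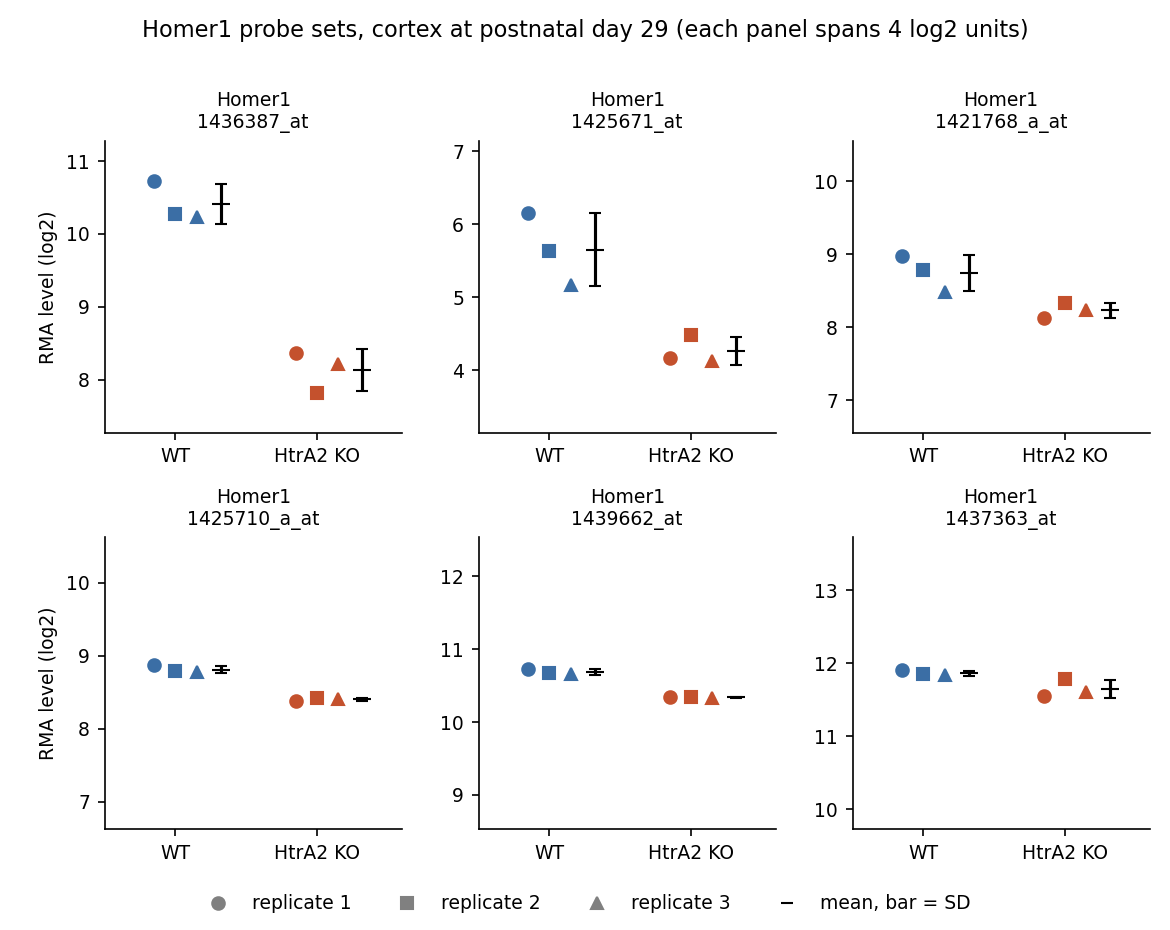
RMA level (log2) of the 6 Homer1 probe sets in each array, with circles, squares and triangles for replicates 1 to 3 and the mean with its SD beside them; every panel spans the same number of log2 units. The groups are apart in every panel, by 1.86 at 1436387_at and by 0.060 at 1437363_at.

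Because all 6 probe sets were read from the same arrays, their inequality can be followed within each array. The mean of the 3 called probe sets minus the mean of the other 3 was -1.96, -2.20 and -2.27 in the WT arrays and -3.04, -3.25 and -3.14 in the knockout arrays. The groups did not overlap, with means of -2.14 ± 0.17 (SD) and -3.14 ± 0.11 (SD), a shift of -1.0. This split of the probe sets was made on the same comparison, so the shift describes an unequal change among Homer1 probe sets and does not say that any of them was unchanged. WT replicate 1 was the highest array at all 6 probe sets. Over the 6 arrays, pairs of Homer1 probe sets correlated with Pearson's r from 0.762 to 0.997, values that share the split between the genotypes.

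The sequence before the Homer1 start is shown because activity-induced genes are known targets of CREB, which binds the cAMP response element. RefSeq's table for GRCm38.p6 gives the following 250 bases before a Homer1 start on the plus strand of chromosome 13, in which capitals mark the letters TGACG, the core of the cAMP response element:

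Homer1, chr13:93303507-93303756: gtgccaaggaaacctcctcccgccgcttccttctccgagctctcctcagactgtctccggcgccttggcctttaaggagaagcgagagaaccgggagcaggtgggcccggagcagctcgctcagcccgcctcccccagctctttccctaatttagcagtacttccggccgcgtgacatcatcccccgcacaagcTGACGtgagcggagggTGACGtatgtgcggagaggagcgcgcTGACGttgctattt

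TGACG or its reverse complement CGTCA occurred 3 times there, with the first base 56, 40 and 14 bases before the start. The full palindrome TGACGTCA, which contains both, did not occur. Of 32851 such windows of 250 bases in the table, 17.8% held at least 1 match on either strand, 0.688% held at least 3 and 1.55% held the palindrome. A second Homer1 window, before a downstream start, held 0, as did those of Homer2, Homer3 and Shank3. No window was available for Shank1, Shank2 or Grm5. For the activity-induced genes described below, the table held 41 windows of 28 genes, of which 24 (58.5%) held at least 1 match, 4 (9.76%) at least 3 and 5 (12.2%) the palindrome. These are letter matches in a window and say nothing of what is bound there.

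The other Homer genes were measured by 4 probe sets, none of them called. Homer2, whose protein has the same EVH1 and coiled-coil plan, was lower at each of its 3 probe sets by 0.20 to 0.28. At 1436110_at it read 7.41, 7.20 and 7.08 in WT and 6.97, 6.97 and 6.89 in HtrA2_KO, a difference of -0.28 ± 0.10, and the groups were 0.11 apart. At 1424367_a_at it read 10.56, 10.46 and 10.68 against 10.46, 10.23 and 10.42, or -0.20 ± 0.09, where the groups were separated by only 0.0038. At 1457671_at it read 10.55, 10.50 and 10.64 against 10.53, 10.24 and 10.33, or -0.20 ± 0.09, and knockout replicate 1 lay within the WT range.

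Homer3, known as the Homer of cerebellar Purkinje cells, had 1 probe set. It read 7.64, 7.80 and 7.64 in WT and 7.54, 7.52 and 6.96 in HtrA2_KO, a difference of -0.35 ± 0.16. Knockout replicate 3 alone was far down, and without it the difference was -0.16.

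The Shank genes encode the large scaffolds that Homer binds below the receptor layer. Shank3 read 10.46, 10.38 and 10.55 in WT and 10.25, 10.49 and 10.15 in HtrA2_KO, a difference of -0.17 ± 0.10. Knockout replicate 2 lay inside the WT range and the other knockout arrays below it. Shank1 read 6.43, 6.30 and 6.62 against 6.53, 6.64 and 6.48, or 0.10 ± 0.10, the only one of the 14 differences above 0, and the groups were intermingled. Neither was called.

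Grm5 encodes mGlu5, a Gq-coupled group I receptor of the forebrain, and its 2 probe sets differed little. At 1456119_at it read 9.51, 9.27 and 9.47 in WT and 9.09, 9.30 and 9.23 in HtrA2_KO, a difference of -0.21 ± 0.09 in which WT replicate 2 lay between the knockout arrays. At 1455272_at it read 11.49, 11.55 and 11.66 against 11.62, 11.47 and 11.57, or -0.01 ± 0.08. The sign of that last difference turned with the setting, from -0.05 to 0.03, while the sign of each of the other 13 held in all alternatives run.

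**Figure D2:**
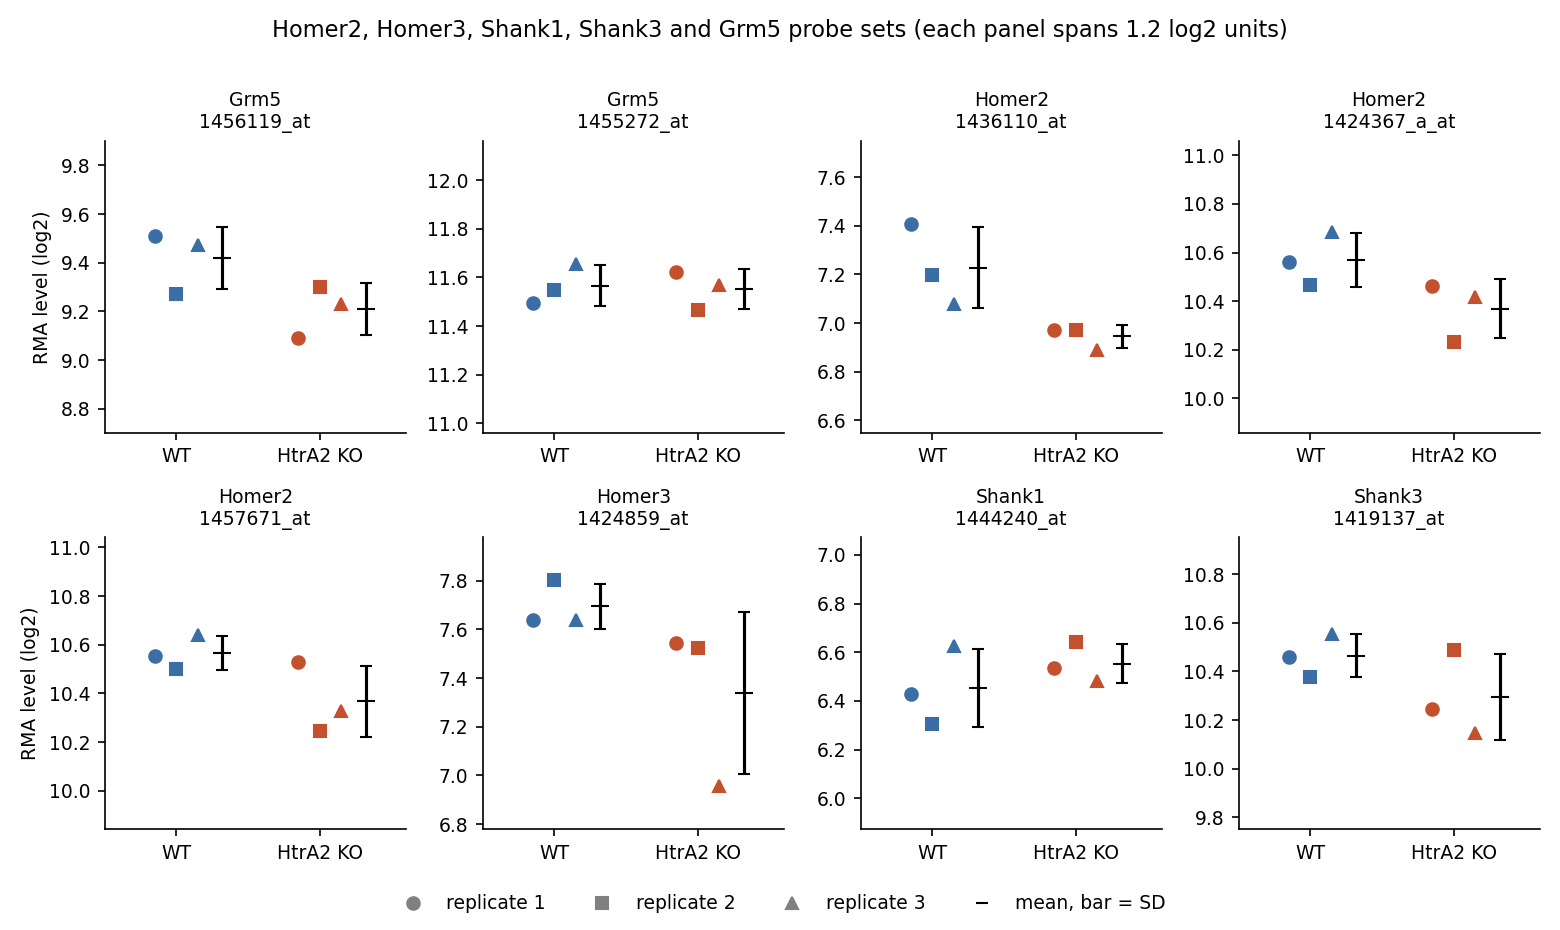
RMA level (log2) of the 8 probe sets of Homer2, Homer3, Shank1, Shank3 and Grm5 in each array, marked as in the Homer1 plot; every panel spans the same number of log2 units, fewer than there. The groups overlap in 5 of the 8 panels.

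Over the 14 probe sets together, 3 were called lower and 0 higher, all 3 of Homer1, against 0.884% called lower and 0.884% called higher among all probe sets. The groups did not overlap at 9 of the 14, each with the knockout lower, where 11.6% of all probe sets were separated in that direction. Of those 9, 6 were probe sets of Homer1, the gene that led to the choice of the group. Outside Homer1 it was 3 of 8. The median difference of the 8 probe sets outside Homer1 was -0.20, and 7 of the 8 lay below 0. Over all probe sets the median was 0.0048 and 48.7% lay below 0. Whether Homer1 moved more than the other genes was not tested, since the contrast had already singled it out.

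**Figure D3:**
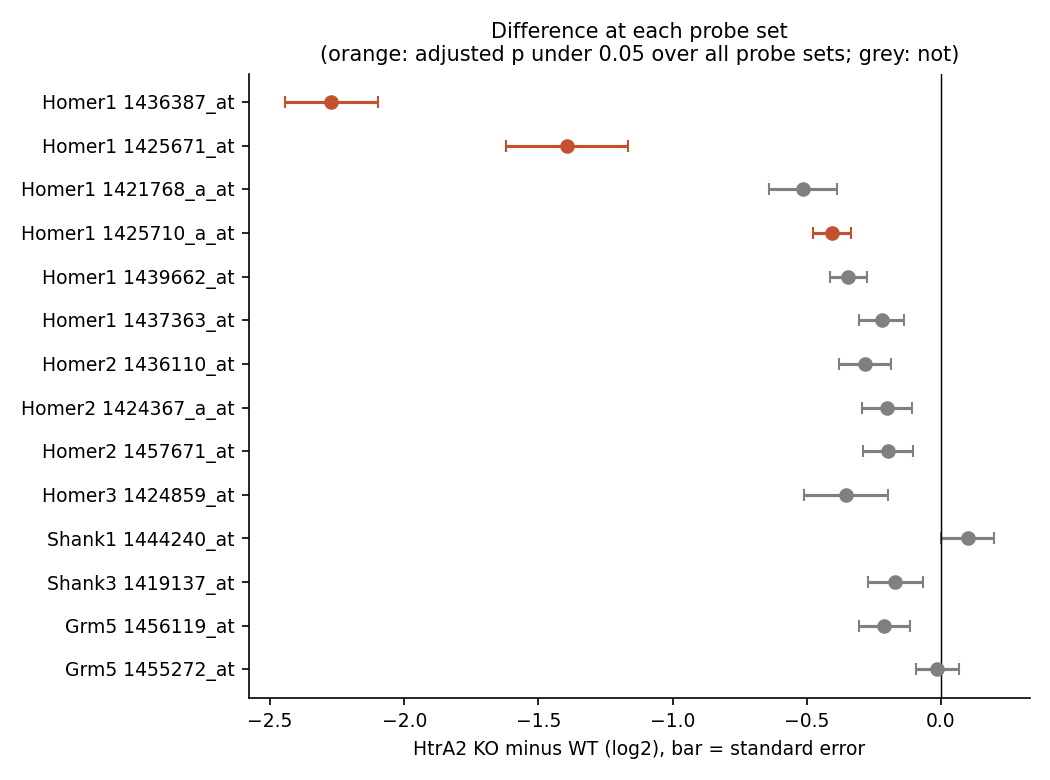
Difference between knockout and wild type (log2) at each of the 14 probe sets, with its standard error; orange marks those called over all probe sets. The 3 orange points, all Homer1, lie at -2.27, -1.39 and -0.41, and the 8 probe sets of the other genes lie between -0.35 and 0.10.

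The genes around these scaffolds were read at the probe set of highest mean for each gene, where 1.05% of all genes were called lower and 1.39% higher, with a median difference of 0.02. Other proteins that bind Homer or Shank had 0 of 25 measured genes called in either direction by limma (at an unadjusted p under 0.05, 5 were lower and 1 higher), with a median of -0.04. Nearest to the threshold were Dlgap2, which links PSD-95 to Shank, at -0.45 ± 0.10 (adjusted p = 0.0636), and Sipa1l1, a regulator of spine actin, at -0.28 ± 0.07 (adjusted p = 0.10). Dlgap2 read 8.20, 8.09 and 7.87 in WT and 7.63, 7.56 and 7.62 in HtrA2_KO, without overlap. Without knockout replicate 2, 2 of the 25 were called.

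The PSD-95 family and its partners likewise had 0 of 14 called in either direction by limma (3 lower and 1 higher at an unadjusted p under 0.05), with a median of -0.03. Syndig1, which promotes the clustering of AMPA receptors, differed by -0.48 ± 0.10 (adjusted p = 0.0553) and Cnksr2, a scaffold that binds PSD-95, by -0.26 ± 0.08 (adjusted p = 0.131). Without knockout replicate 2, 1 of the 14 was called.

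In signalling downstream of group I mGlu receptors, 2 of 19 genes fell, 1 rose and 16 did not pass, with a median of -0.04. Those that fell shorten Gq signalling by speeding GTP hydrolysis: Rgs2 by 0.60 ± 0.09 (adjusted p = 0.0255) and Rgs4 by 0.50 ± 0.08 (adjusted p = 0.0336). Rgs2 is also on the list of activity-induced genes described below and is counted as fallen in both lists. Rgs4 read 12.80, 12.69 and 12.64 in WT and 12.14, 12.33 and 12.17 in HtrA2_KO. Siah1a, a ubiquitin ligase that binds the receptors' tails, rose by 0.49 ± 0.07 (adjusted p = 0.0229). All 3 calls were lost in 4 of the 6 omissions of 1 array (each WT replicate and knockout replicate 3), 1 gene was called without knockout replicate 1, and 8 were called without knockout replicate 2.

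Activity-induced genes are the class to which the short Homer1 form belongs. Of 37 measured genes 10 fell (27.0%, against 1.05% of all genes), 0 rose in limma's test, at an unadjusted p under 0.05 too, and 27 did not pass, with a median of -0.40. The shorter lists of microglial and astrocyte markers, described below, had shares of 33.3% and 30.0% lower. The groups did not overlap, with the knockout lower, at 21 of the 37, where 12.8% of all genes were so separated. That these genes were lower was known from these arrays when the list was drawn up, so their direction is not independent evidence. The count was 2 without each of the WT replicates in turn, and 6, 14 and 3 without knockout replicates 1, 2 and 3.

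Among them Nptx2, a pentraxin that gathers AMPA receptors, fell by 1.24 ± 0.11 (adjusted p = 0.00360). It read 8.36, 8.20 and 8.0 in WT and 7.03, 6.93 and 6.86 in HtrA2_KO. Nr4a1, an orphan nuclear receptor, fell by 1.0 ± 0.10 (adjusted p = 0.00528), the growth factor gene Bdnf by 0.81 ± 0.09 (adjusted p = 0.0115) and Ptgs2, for cyclooxygenase-2, by 1.42 ± 0.19 (adjusted p = 0.0174). For comparison with Homer1, Arc, a synaptic protein induced alongside it, read 9.36, 9.87 and 10.02 in WT and 8.57, 8.33 and 7.23 in HtrA2_KO (-1.71 ± 0.33, adjusted p = 0.0482). Arc was lowest among the WT arrays in replicate 1, where Homer1 was highest. The other genes named here were mixed: in WT replicate 1 Nptx2 and Bdnf were highest, Nr4a1 was lowest and Ptgs2 lay between. The list's mean deviation from the WT mean was -0.09, 0.04 and 0.05 in the WT arrays and -0.34, -0.48 and -0.71 in knockout replicates 1, 2 and 3. At the steepest Homer1 probe set the same 3 knockout arrays differed from the WT mean by -2.04, -2.59 and -2.19, a different order.

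**Figure D4:**
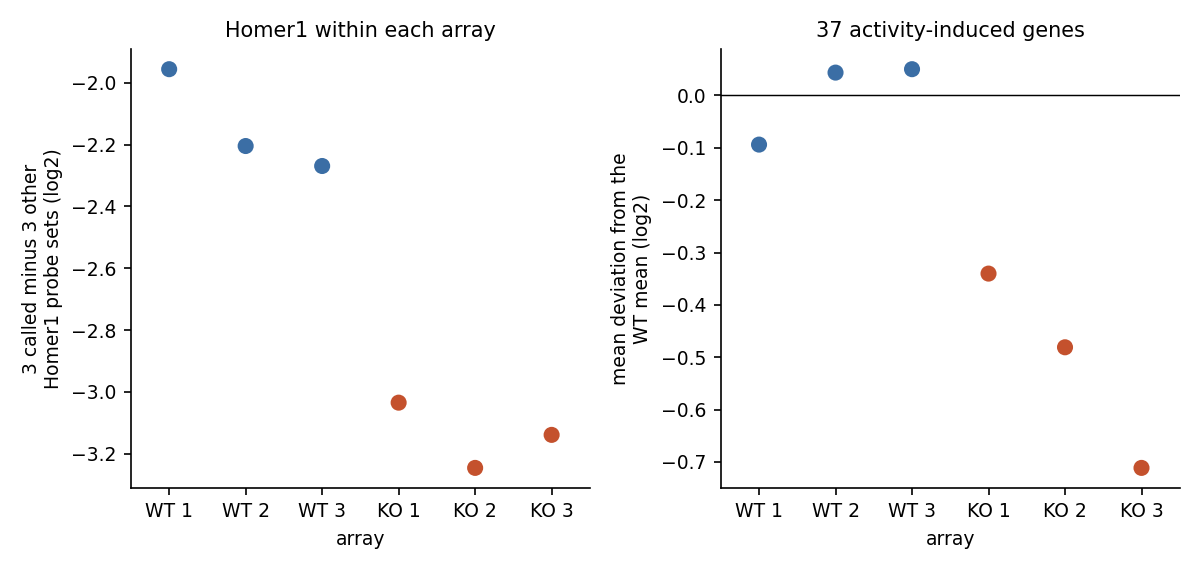
Left, mean of the 3 called minus mean of the 3 other Homer1 probe sets (log2) in each array; right, mean deviation from the WT mean (log2) of the 37 activity-induced genes in each array. On the left the WT arrays sit between -2.27 and -1.96 and the knockout arrays between -3.25 and -3.04; on the right knockout replicate 3 is lowest at -0.71. The left axis does not reach 0.

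Regulators of activity-induced transcription had 1 of 18 genes called. Rps6ka3, the kinase RSK2 that phosphorylates CREB, fell by 0.49 ± 0.08 (adjusted p = 0.0263), and the list's median was 0.02. That call was lost without any 1 of the WT replicates or knockout replicate 3, and 4 genes were called without knockout replicate 2.

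**Figure D5:**
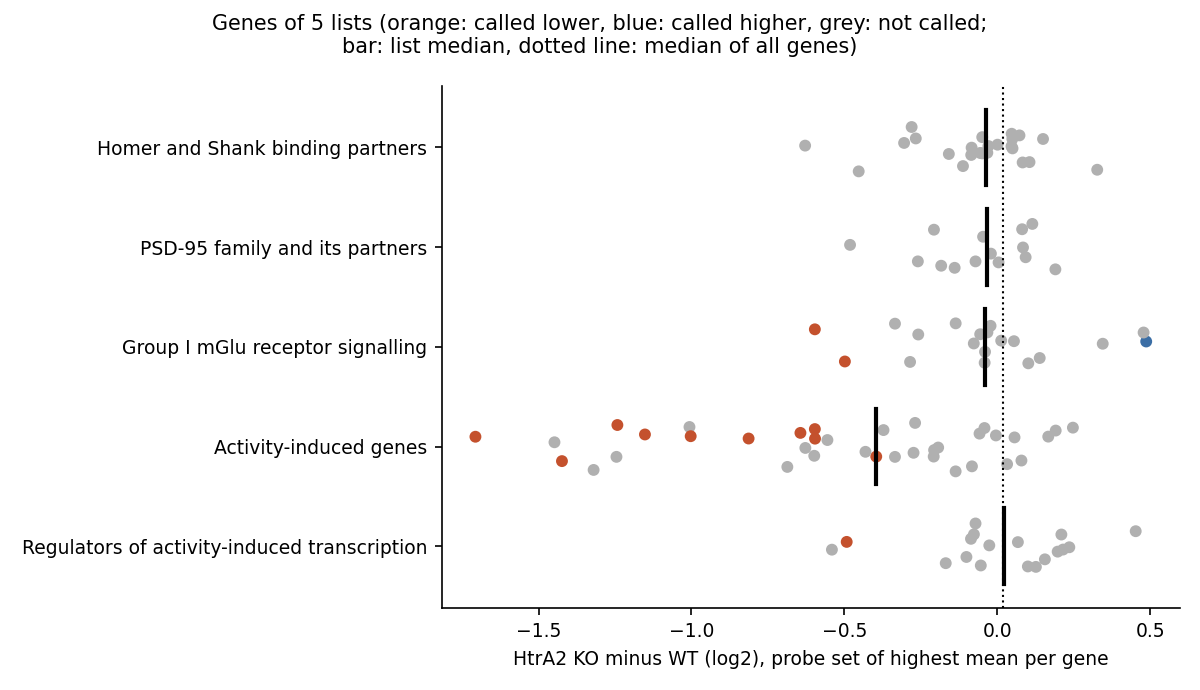
Difference between knockout and wild type (log2) of each measured gene in 5 lists, at the probe set of highest mean; the short bars are list medians and the dotted line is the median of all genes at 0.02. The median of the activity-induced genes lies at -0.40 and the other 4 between -0.04 and 0.02.

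The genes whose pattern over the 6 arrays was most like that of 1436387_at, among 1938 probe sets of other genes with an SD of at least 0.3, were Vamp4 (Pearson's r = 0.997), Dhcr7 (0.997), H2aw (0.994), Ier5 (0.994) and Spink10 (0.993). They were lower in the knockout by 0.54 to 1.07. For 1437363_at the nearest were Prkca (0.987), Rsrp1 (0.976), Mvd (0.966), Alas2 (0.966) and Klk8 (0.960). No gene is among the nearest of both. These values rest on 6 arrays and share the split between the genotypes, so they are a description with no test.

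Markers of the cells that cortex holds moved as well. In bulk tissue, fewer cells of a type and less RNA per cell cannot be told apart. Of 11 markers of excitatory neurons, 2 fell (Pcp4 by 0.62 ± 0.07 and Neurod6 by 0.66 ± 0.11, adjusted p = 0.00975 and 0.0301), while the vesicular glutamate transporter Slc17a7 differed by 0.04 ± 0.08. At an unadjusted p under 0.05 by limma, 5 of the 11 were lower and 0 higher. The summed level of the 11 was 119.9 to 120.4 in WT and 116.9 to 118.3 in HtrA2_KO, and Slc17a7 was present at 10.95 and 10.99. By limma, interneuron markers had 0 of 10 called (3 lower at an unadjusted p under 0.05) and striatal markers 0 of 8 (1 lower). Hippocampal markers had 1 of 8 called, lower (3 lower and 2 higher unadjusted). Interneuron sums were 104.8 to 105.0 in WT and 103.5 to 104.6 in HtrA2_KO. Summed levels of the striatal list overlapped between the genotypes (71.6 to 73.8 and 71.2 to 72.6), as did the hippocampal (68.9 to 69.9 and 68.1 to 69.3).

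Among glia, 3 of 10 astrocyte markers were called lower and 1 higher by limma (4 lower and 1 higher at an unadjusted p under 0.05). Astrocyte sums were 109.6 to 109.9 in WT and 107.5 to 109.0 in HtrA2_KO. The oligodendrocyte lineage had 2 of 11 called lower, with sums of 118.6 to 119.6 and 115.2 to 116.1. Of these 11 genes, 7 were lower at an unadjusted p under 0.05 and all 11 differences lay below 0. Microglia had 3 of 9 called lower, with sums of 79.3 to 81.2 and 76.6 to 77.6. Of these 9 genes, 6 were lower unadjusted and 8 differences lay below 0, with a median of -0.41. The shares called lower were 30.0% for astrocytes, 18.2% for the oligodendrocyte lineage and for excitatory neurons, and 33.3% for microglia, against 1.05% of all genes. Meningeal and vessel markers had 0 of 12 called by limma (6 higher at an unadjusted p under 0.05) and higher sums in the knockout (102.1 to 104.5 and 104.7 to 108.4). Choroid plexus markers had 0 of 7 called (1 lower unadjusted), with sums of 40.8 to 49.9 and 40.7 to 41.2. WT replicate 2 held the highest of these sums. The part of these shifts in the Homer1 values was not tested. Differences of the marker genes called lower ran from -0.82 (Lct) to -0.47 (Tmem119), a range that holds 1 of the 6 Homer1 probe sets, with 2 below it and 3 nearer to 0. Only called genes set that range, which leaves out smaller marker differences, so nothing is read from it. Ttr of the choroid plexus list, not called, differed by -2.56 ± 1.02, with WT replicate 2 far above the other WT arrays.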

How the data were processed

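Total RNA of cortex was hybridised, biotin-labelled, to Affymetrix arrays, 1 per sample. The deposited values are read as log2 levels that the authors made with RMA, per the submitters' processing notes, which give no version. RMA corrects background, quantile normalizes and summarises each probe set. The base of the logarithm was inferred from the range of the values. The number of arrays, 3 per group, limits the precision. As the labels do not name separate animals, a p-value here reflects only how far these samples spread, which may be technical.

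From the deposited values, 45037 probe sets (all but 64 controls) were fitted with limma 3.58.1 in R 4.3.3 (lmFit and eBayes, two-sided, genotype the only term), with Benjamini-Hochberg adjustment over all of them at 0.05. The fit was tested on simulated data. The platform annotation gave 34945 probe sets 1 symbol, 932 several and 9160 none; 34741 of the first were matched by gene identifier to RefSeq names. No probe set with several symbols lists a gene described here. The genes described and the lists were chosen with earlier results of these data known. Of each list, up to 4 called genes of smallest p were named, or 2 where none passed; Arc, Slc17a7, Pcp4, Neurod6, Lct, Tmem119 and Ttr were named after their values were seen. Likeness was Pearson's r with the Homer1 probe set of largest difference and with that of highest mean. Alternatives were leaving out each array, the replicate number as a block, array weights, median centring, a repeated quantile normalization, limma-trend (robust), leaving out probe sets whose mean is below 6.42 and, for lists, any probe set of a gene. No batch or scan date is given.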

Additional observations from a re-analysis of the deposited data

How the results depend on the processing

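All 167 recomputed differences at the 14 probe sets moved by less than the pooled within-group SD of their probe set. For most of them no other outcome was possible, so nothing is read from that count. With groups of this size, leaving out 1 array cannot shift a difference by that much. The replicate block, the filter on dim probe sets and limma-trend left each difference they kept as it was. Only further quantile normalization, median centring and array weights could have moved a difference by more. The only sign to turn was that of Grm5 at 1455272_at, which was not called. Counts depended on the arrays. Leaving out 1 array at a time gave 65 to 3037 called probe sets in all, 1 to 5 of Homer1 lower (and so of the 7 genes), 2 to 14 activity-induced genes lower, and, called, 0 to 2 Homer and Shank partners, 0 to 1 of the PSD-95 family, 0 to 8 of group I mGlu signalling and 0 to 4 transcription regulators. With the replicate block these were 154, 1, 5, 0, 0, 0 and 0. The numbers are not said to pair animals. Same-numbered arrays deviated with correlations of -0.20, -0.04 and -0.17, and differently numbered ones with -0.06 to 0.22. In groups of 3, each array's deviations are offset by the rest of its group, so these values cannot decide whether the arrays were paired. Array weights gave 4205, 6, 17, 4, 1, 8 and 5. The filter on dim probe sets gave 1770 in all, 2 Homer and Shank partners, 1 of the PSD-95 family and 7 of mGlu signalling; limma-trend gave 1770, 2, 2 and 7. Further quantile normalization moved only the transcription regulators by over 1.5 times, to 2, and any probe set of a gene only the PSD-95 family, to 1. Median centring moved no count by that much. The cause of these changes in the counts was not tested.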

Other observations

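Ttr, the transthyretin gene of the choroid plexus, read 12.86 in WT replicate 2 and 8.46 and 8.62 in WT replicates 1 and 3, against 7.34, 7.61 and 7.32 in HtrA2_KO. It was picked out after its values were seen. WT replicate 2 was also the highest WT array at each of the 7 measured choroid plexus markers. That list's mean deviation from the WT mean was 0.79 there, against -0.52 and -0.28 in WT replicates 1 and 3. In knockout replicates 1, 2 and 3 it was -0.50, -0.46 and -0.53. Whether the arrays differed in the tissue they held was not tested. At 1436387_at of Homer1, WT replicate 2 read 10.28, between the other WT arrays.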
